A study of Rattus norvegicus with 43 samples.

Results

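The comparison described here set high-amylose wheat (diet code HAW) against high-amylose maize (HAM) in the distal colon of rats. Its members were the 8 arrays whose diet label is HAW and the 8 whose diet label is HAM, 16 of the 43 arrays of the series. All animals were 11-week-old Sprague Dawley rats. The series title speaks of a Western diet, which is taken here to hold for HAW and HAM and not for the control diet. The other diets were coded LAW (low-amylose wheat, 6 arrays), LAMS (low-amylose maize starch, 7), HAMSB (butyrylated high-amylose maize starch, 9) and control (5). The labels give the diets as codes only, so their reading as wheat, maize and butyrylated starch is background knowledge of the study, not a label. The series description writes HAMS for the diet labelled HAM. HAW and HAM differ in the grain that carries the amylose, and a wheat diet and a maize starch diet may differ in more than starch, so starch and other parts of the grain cannot be told apart. Nothing in the labels says whether animals shared cages.

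Amylose is the largely unbranched form of starch. Starch rich in it resists digestion in the small intestine and reaches the large bowel, where bacteria ferment it to short-chain fatty acids, among them butyrate, a fuel of the colonic epithelium. Wheat grain also brings fibre of the cell wall, minerals and phytate, which binds zinc and other metals. The distal colon takes up water and salt, is covered by mucus from goblet cells, and holds lymphoid aggregates in its wall. Each array measured RNA from a whole piece of this tissue, so fewer cells of a type and less RNA per cell cannot be told apart.

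Levels are log2 values, on which 1 unit is a doubling, given as means ± SD over the 8 arrays of a diet. Differences are HAW minus HAM on the same log2 scale, given ± their standard error, and "rose" or "fell" is written of HAW relative to HAM where the adjusted p was below 0.05. The 95% interval of a difference reached 0.24 to either side for the median gene. The tissue label was checked against marker lists. The mean level of the distal colon list lay between 9.15 and 10.22 in HAW and between 8.52 and 10.29 in HAM, while that of the small intestine list lay between 5.27 and 6.38 in HAW and between 5.35 and 5.81 in HAM.

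Several features of the arrays were compared between the diets. The mean level of B cell and germinal centre genes, called the lymphoid level below, was 6.31 ± 1.05 in HAW and 7.30 ± 1.08 in HAM. It lay above 7 in 2 HAW arrays, at 8.24 and 7.64, and in 6 HAM arrays, between 7.23 and 8.53. The other arrays of both diets lay between 5.56 and 6.32. The mean level of the adipocyte list was 7.09 ± 0.43 in HAW, with arrays between 6.51 and 7.66, and 6.33 ± 0.21 in HAM, with arrays between 6.08 and 6.64. The lowest HAW array lay below the 2 highest HAM arrays, and no others overlapped. The interquartile range of the tested genes, a measure of how widely the values of an array spread, was 2.10 ± 0.13 in HAW and 2.0 ± 0.09 in HAM (exact two-sided permutation test, p = 0.103). Finally, the array files are named in 3 styles; all 8 HAM arrays are of 1 style, against 3 of the 8 HAW arrays, and what the styles stand for is not given. The 3 HAW arrays of that style had a mean spread of 1.98 ± 0.15, close to that of HAM. Their spreads were 2.04, 2.08 and, in HAW replicate 8, 1.81, so that mean leans on 1 array. The part of these features in the differences below was not tested beyond the fits that include them.

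**Figure D1:**
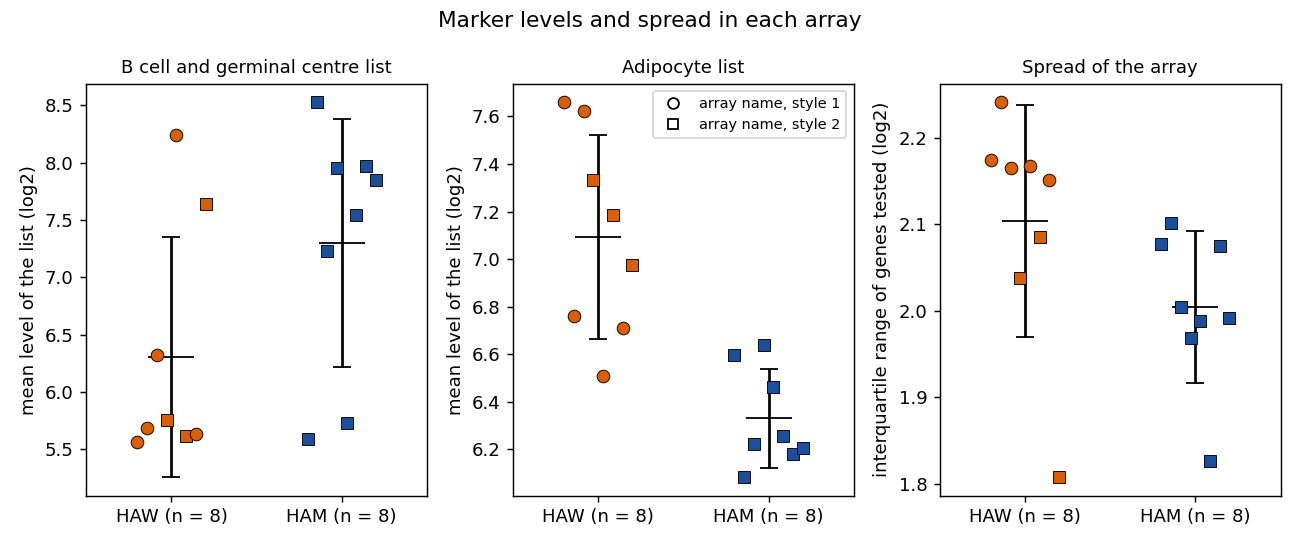
Mean log2 level of B cell and germinal centre genes (left) and of the adipocyte list (middle), and interquartile range of the log2 values of the genes tested (right), in each HAW array (orange) and HAM array (blue). Points are arrays, circles and squares are 2 styles of array file name, and bars are the mean ± SD of 8 arrays. The lymphoid level was above 7 in 2 HAW arrays and 6 HAM arrays, and adipocyte levels reached 7.66 in HAW and 6.64 in HAM.

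Of 10828 genes tested, 1445 (13.3%) passed the threshold between HAW and HAM: 1193 (11.0%) rose and 252 (2.33%) fell. Most differences were small, with a median of 0.46 among the rises and -0.37 among the falls; 15 rises and 8 falls exceeded 1 log2 unit. The largest rises were in adipocyte genes, the metallothioneins Mt1 and Mt2A, and the gluconeogenic enzyme gene Pck1. The largest falls were in a small non-coding RNA, Rpph1, in Ccdc107, in the histone gene H4c14, and in genes of white blood cells such as Ncf1. In 1091 of the 1193 rises (91.5%) HAM had the lowest mean of the 6 diets, and in 153 (12.8%) HAW had the highest, against 40.5% and 4.25% of all genes tested. Among the 252 falls, HAM had the highest mean in 222 (88.1%) and HAW the lowest in 99 (39.3%), against 17.7% and 8.05% of all genes; these places were read from the same arrays that made the calls. The count depended on single arrays and on what else was fitted. It was 3109 without HAW replicate 8, 2302 without HAM replicate 1, and between 542 and 940 without HAW replicates 1, 2, 3 or 7 or HAM replicates 2, 4, 6, 7 or 8, each left out alone. With name style as a block it was 805 (7.43%), with the lymphoid level as a covariate 361 (3.33%), with both 38 (0.351%), and with only HAW and HAM in the fit 25. With each array centred on its own median, 984 genes passed, 545 up and 439 down (55.4% up), in place of 82.6% up.

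The same grain contrast at low amylose, LAW minus LAMS, shared no array with these groups. No gene passed there in limma (188 at an unadjusted p below 0.05), and the 1193 genes that rose had a median LAW minus LAMS difference of 0.01, with 643 positive and 550 negative. For the 252 falls that median was -0.01. The difference between the wheat minus maize contrasts at high and at low amylose was tested in the same fit. It passed for 3 genes (0.0277%): Eif2s2, Rpph1 and Ccdc107 (1662 at an unadjusted p below 0.05). That count was 215 without HAW replicate 8, between 9 and 17 without HAW replicate 5 or HAM replicates 1, 3 or 5, and 50 with name style as a block. The 95% interval of this second-order difference reached 0.36 to either side for the median gene tested. For the other genes a grain contrast limited to high amylose was not shown.

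Metallothioneins are small cysteine-rich proteins that bind zinc and copper, and their genes are switched on by zinc through the transcription factor Mtf1, which binds metal response elements in their promoters. Mt1 lay between 10.77 and 12.22 (median 11.29) in HAW, against 9.16 to 10.87 (median 9.86) in HAM. A single HAW array lay within the HAM range and 7 lay above it. Mt1 averaged 11.43 ± 0.51 in HAW and 10.02 ± 0.70 in HAM (SD, n = 8 each), a difference of 1.41 ± 0.28 (adjusted p = 0.00507), or 2.66-fold. Mt2A lay between 9.42 and 11.72 (median 10.10) in HAW, against 7.57 to 9.83 (median 8.57) in HAM. Mt2A averaged 10.25 ± 0.81 in HAW and 8.67 ± 0.84 in HAM, a difference of 1.59 ± 0.38 (adjusted p = 0.011), or 3.0-fold. Both genes are measured by a second probe set, which gave 1.47 for Mt1 and 1.67 for Mt2A. HAW had the highest mean of the 6 diets for both genes. Over the other diets, Mt1 averaged 10.81 ± 0.58 in LAW, 10.59 ± 0.49 in LAMS, 10.14 ± 0.61 in HAMSB and 10.91 ± 0.65 in the control, and HAM had the lowest mean of all. LAW minus LAMS was 0.22 for Mt1 and 0.17 for Mt2A, neither past the threshold, and the difference between the grain contrasts did not pass either (adjusted p = 0.199 and 0.249).

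The promoters of Mt1 and Mt2A are shown because the metal response elements that define this gene pair lie there. The sequences run from 250 bases before the annotated start up to it, 5′ to 3′ on the strand of the gene (RefSeq, GRCr8; Mt1 at chr19:10832976-10833225 and Mt2A at chr19:10838709-10838958, both on the minus strand). Capitals mark matches, on either strand, to the element's core, searched as TGCACNC and TGCGCNC.
Mt1: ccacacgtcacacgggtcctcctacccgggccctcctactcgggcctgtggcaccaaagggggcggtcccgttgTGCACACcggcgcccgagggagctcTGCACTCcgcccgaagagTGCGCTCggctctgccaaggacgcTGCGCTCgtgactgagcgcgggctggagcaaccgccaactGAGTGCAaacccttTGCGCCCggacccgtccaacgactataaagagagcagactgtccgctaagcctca
Mt2A: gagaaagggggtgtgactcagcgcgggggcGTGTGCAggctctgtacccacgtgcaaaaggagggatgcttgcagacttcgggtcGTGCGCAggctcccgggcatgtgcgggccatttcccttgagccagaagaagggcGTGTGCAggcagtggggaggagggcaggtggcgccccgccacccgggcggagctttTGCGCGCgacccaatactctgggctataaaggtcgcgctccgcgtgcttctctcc
The Mt1 promoter held 6 matches and the Mt2A promoter 4. Among 33469 promoters of the same length, 20.6% held at least 1 match and 0.266% at least 4. A match is a stretch of letters, not a measured binding site.

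Other zinc genes were followed in the same families. The third metallothionein tested, Mt3, a form best known from the brain, was low, at 5.61 ± 0.30 in HAW and 5.74 ± 0.29 in HAM, and did not pass. Among 13 Slc39 importers, which move zinc into the cytoplasm, 3 rose and none fell, beside rises in 11.0% of all genes. Slc39a14, a carrier of zinc, iron and manganese, averaged 7.75 ± 0.23 in HAW and 7.09 ± 0.32 in HAM, a rise of 0.66 ± 0.13 (adjusted p = 0.00482). Slc39a8, its closest relative, rose by 0.45 ± 0.14 and Slc39a11 by 0.38 ± 0.12. Their calls were lost in 8 and 9 of the 16 fits that left out 1 array. Slc39a4, the main zinc importer of the gut surface, was 0.44 ± 0.16 higher without passing (adjusted p = 0.0598). Of 8 Slc30 exporters 1 rose, Slc30a7, which loads zinc into the Golgi, by 0.36 ± 0.10. In the list of calcium, iron and zinc handling, 6 of 15 genes rose and none fell, with a median of 0.43 beside 0.07 over all genes. Besides Mt1 and Slc39a14 it held Heph, the ferroxidase that lets iron leave the enterocyte, at 8.76 ± 0.30 in HAW and 8.00 ± 0.60 in HAM (0.76 ± 0.18, adjusted p = 0.0107). With name style and the lymphoid level both fitted, Mt1 (1.28, adjusted p = 0.0243) and Mt2A (1.76, adjusted p = 0.024) still passed, while Slc39a14 did not (0.34, adjusted p = 0.209). Neither Mt1 nor Mt2A passed with array spread as a covariate or with only arrays of 1 name style. Mt2A also did not pass with only HAW and HAM in the fit.

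Rpph1 gave the smallest p in the comparison. The symbol is used for the RNA of ribonuclease P, and the RefSeq table lists the same rat gene as the RNA of ribonuclease MRP with Rmrp as an older name; both enzymes trim non-coding RNAs. Rpph1 lay between 11.13 and 11.97 (median 11.72) in HAW, against 12.21 to 13.06 (median 12.71) in HAM. Every HAW array was below every HAM array, a pattern that 5 of the genes tested showed (0.0462%). The difference was -1.03 ± 0.15 (adjusted p = 0.000161), which makes HAW 0.489 times HAM. The other diets lay between, at 11.97 ± 0.36 in LAW, 11.81 ± 0.27 in LAMS, 12.41 ± 0.41 in HAMSB and 12.17 ± 0.15 in the control. The wheat minus maize contrast was 0.16 ± 0.16 at low amylose, and the contrasts differed by -1.19 ± 0.22 (adjusted p = 0.0138). Rpph1 passed in each of the 18 other settings tried and in each of the 16 fits that left out 1 array.

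Eif2s2, which encodes the beta subunit of the initiation factor that brings the first transfer RNA to the ribosome, had the smallest p for a grain contrast that differed between high and low amylose. It lay between 8.61 and 9.23 (median 8.86) in HAW, against 7.68 to 8.57 (median 7.90) in HAM, and every HAW array was above every HAM array. The difference was 0.84 ± 0.13 (adjusted p = 0.000525), or 1.79-fold. LAW averaged 8.54 ± 0.21 and LAMS 8.95 ± 0.21, a difference of -0.41 ± 0.15 that did not pass after adjustment, and the contrasts at high and low amylose differed by 1.24 ± 0.20 (adjusted p = 0.00181). HAM and HAMSB, at 8.02 ± 0.32 and 8.27 ± 0.36, had the lowest means.

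The probe set named Ccdc107 lay between 7.85 and 9.50 (median 8.37) in HAW, against 9.01 to 11.25 (median 10.11) in HAM. Ccdc107 encodes a membrane protein with a coiled coil. The sequence entry that the array annotation gives for this probe set is not among the RefSeq transcripts of the gene, so the name rests on that annotation. The difference was -1.65 ± 0.25 (adjusted p = 0.00036), or 0.319 times HAM. LAW minus LAMS was 0.35 ± 0.28, and the contrasts differed by -2.0 ± 0.38 (adjusted p = 0.0138). With name style as a block the difference was -1.15 (adjusted p = 0.0075), and with the lymphoid level added it was -0.88 and did not pass (adjusted p = 0.0684).

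The next 5 genes by the p of that test had adjusted p between 0.0743 and 0.0867 and did not pass it, though all 5 passed between HAW and HAM. Lsm4, a subunit of the ring that binds U6 small nuclear RNA, averaged 8.48 ± 0.18 in HAW and 8.99 ± 0.19 in HAM (-0.51 ± 0.09, adjusted p = 0.00307), against 0.15 in LAW minus LAMS. Rdh14, a retinol dehydrogenase, rose by 0.55 ± 0.13, Slc25a23, a calcium-regulated carrier of ATP in mitochondria, by 0.59 ± 0.11, and Ptn, the growth factor pleiotrophin, by 0.66 ± 0.13. H3f3b, which encodes the replication-independent histone H3.3, rose by 0.46 ± 0.12. In these 4 genes LAW minus LAMS was below 0, between -0.36 and -0.18.

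**Figure D2:**
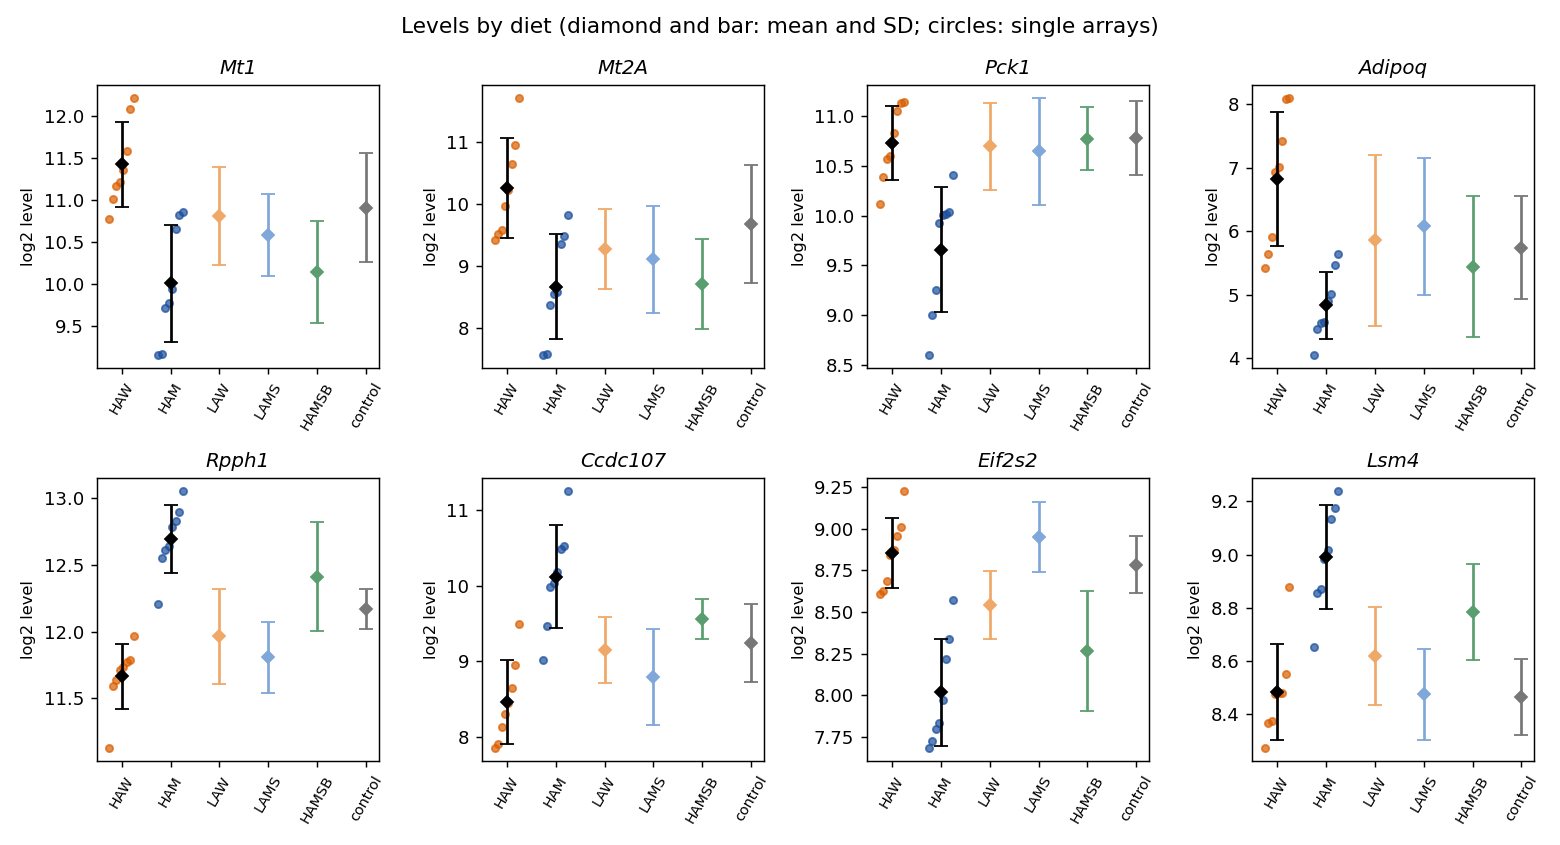
Log2 levels of 8 genes in the 6 diets, HAW and HAM first. Circles are single arrays of HAW and HAM, and diamonds with bars are the mean ± SD of each diet. Mt1 and Mt2A were highest in HAW, at 11.43 and 10.25; Rpph1 and Ccdc107 were highest in HAM, at 12.70 and 10.11; Pck1 was lowest in HAM, at 9.66, with the other 5 diets near HAW.

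Besides Eif2s2, 8 genes had every HAW array above every HAM array (9 in all, 0.0831% of those tested). Leptin (Lep), the satiety hormone made by fat cells, lay at 5.28 to 6.92 in HAW and 4.43 to 5.23 in HAM (0.93 ± 0.27, adjusted p = 0.0222). Erap1, which trims peptides for presentation on MHC class I, lay at 8.75 to 9.08 in HAW and 7.86 to 8.61 in HAM (0.59 ± 0.12, adjusted p = 0.00528). Gnas and Gnb1, subunits of the G proteins that relay hormone signals, were 0.26 ± 0.06 and 0.41 ± 0.10 higher. A second Gnas probe set, near the floor at 4.58 ± 0.17 in HAW and 4.88 ± 0.23 in HAM, gave -0.30, and the second of Gnb1 gave 0.38. Armc9, Ston2 and Tbcel rose by 0.38 ± 0.08, 0.48 ± 0.10 and 0.38 ± 0.09; they act in cilia, in vesicle recycling at the cell surface, and in microtubule turnover. Ctc1, part of a complex that protects telomeres, was separated too but did not pass (0.36 ± 0.16, adjusted p = 0.102). Every HAW array was below every HAM array in H4c14, Rpph1, Kcnk15, Nicol1 and Prr7. Kcnk15, a potassium channel subunit, lay near the floor of the filter at 4.62 ± 0.21 in HAW and 5.03 ± 0.17 in HAM. Nicol1 fell by 0.41 on the log2 scale and Prr7 by 0.43. H4c14, a histone H4 gene, averaged 7.60 ± 0.47 in HAW and 8.64 ± 0.35 in HAM (-1.03 ± 0.24, adjusted p = 0.00929), and passed with name style and the lymphoid level together (-0.88, adjusted p = 0.0243). H4c14 did not pass with name style alone (-0.54, adjusted p = 0.102) or with the adipocyte level added to both (-0.80, adjusted p = 0.189). Other large falls were Fancd2osl1 (-1.28 ± 0.30, adjusted p = 0.0107) and the RefSeq pseudogene LOC366310 (-0.92 ± 0.17, adjusted p = 0.00307), and with both fitted they were -0.35 and -0.53 and did not pass.

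Genes of fat cells made up 6 of the 12 largest rises: Adipoq, Fabp4, Lpl, Cidec and Pck1 of the adipocyte list, and Car3, a carbonic anhydrase abundant in fat and muscle. Of 14 adipocyte genes tested, 8 rose and none fell, all 14 were higher in HAW, and the median was 0.54. Over all genes tested 11.0% rose, 6606 of 10828 were higher in HAW, and the median was 0.07. Adiponectin (Adipoq), a hormone made by fat cells alone, lay between 5.42 and 8.10 (median 6.97) in HAW, against 4.05 to 5.63 (median 4.74) in HAM. The HAM median lay under the floor of the filter, 4.79, and a single HAW array lay within the HAM range. The difference was 1.98 ± 0.48 (adjusted p = 0.011), or 3.95-fold. Car3 lay between 7.51 and 10.53 (median 9.34) in HAW, against 5.09 to 8.20 (median 5.78) in HAM, a difference of 2.80 ± 0.71 (adjusted p = 0.0132), or 6.97-fold.

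Fabp4, the fatty acid binding protein of fat cells, rose by 1.44 ± 0.39, and Lpl, the lipase that draws fatty acids from the blood, by 1.34 ± 0.40. Cidec, which coats and fuses lipid droplets, rose by 1.14 ± 0.27. Cdo1, which oxidises cysteine and is abundant in liver and fat, rose by 1.33 ± 0.36, and Sncg, a synuclein of neurons and fat cells, by 1.09 ± 0.30. All of these passed without a covariate, with adjusted p between 0.011 and 0.0265. With the mean level of the adipocyte list as a covariate, which these genes partly form, Car3 differed by 0.13, Adipoq by 0.09, Fabp4 by -0.02 and Lpl by 0.02, and none passed. That covariate left 23 genes past the threshold in the comparison (0.212%), 20 of them among the 1445. Rpph1 (-1.12, adjusted p = 0.00105), Ccdc107 (-1.68, adjusted p = 0.00814) and Eif2s2 (0.75, adjusted p = 0.0433) were among these, while Mt1 (1.17, adjusted p = 0.0854) and Mt2A (1.27, adjusted p = 0.132) were not.

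Pck1, the cytosolic enzyme that commits oxaloacetate to gluconeogenesis and glycerol synthesis, is used by fat cells and by the colon epithelium. It lay between 10.12 and 11.14 (median 10.72) in HAW, against 8.60 to 10.41 (median 9.97) in HAM, a difference of 1.07 ± 0.22 (adjusted p = 0.00534). LAW, LAMS, HAMSB and the control had means of 10.70, 10.65, 10.78 and 10.78, all near that of HAW. Pck1 passed with name style and the lymphoid level fitted together (0.74, adjusted p = 0.0275) and missed with the adipocyte level (0.63, adjusted p = 0.139). Fabp2, the fatty acid binding protein typical of small intestinal enterocytes, was low, at 5.93 ± 0.88 in HAW and 4.73 ± 0.71 in HAM (1.20 ± 0.31, adjusted p = 0.0147), and was the only 1 of 7 small intestine markers that passed. Med14, a subunit of the Mediator complex that links transcription factors to RNA polymerase, rose by 1.33 ± 0.28 (adjusted p = 0.00606), but its HAM mean of 4.45 ± 0.79 lay under the floor of the filter. Degs2, which makes the phytoceramide of epithelial membranes, averaged 10.03 ± 0.30 in HAW and 9.30 ± 0.47 in HAM (0.73 ± 0.17, adjusted p = 0.00961). It was 1 of 3 genes, with Mt2A and Rpph1, that passed with name style, the lymphoid level and the adipocyte level all fitted (0.74, adjusted p = 0.0499).

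**Figure D3:**
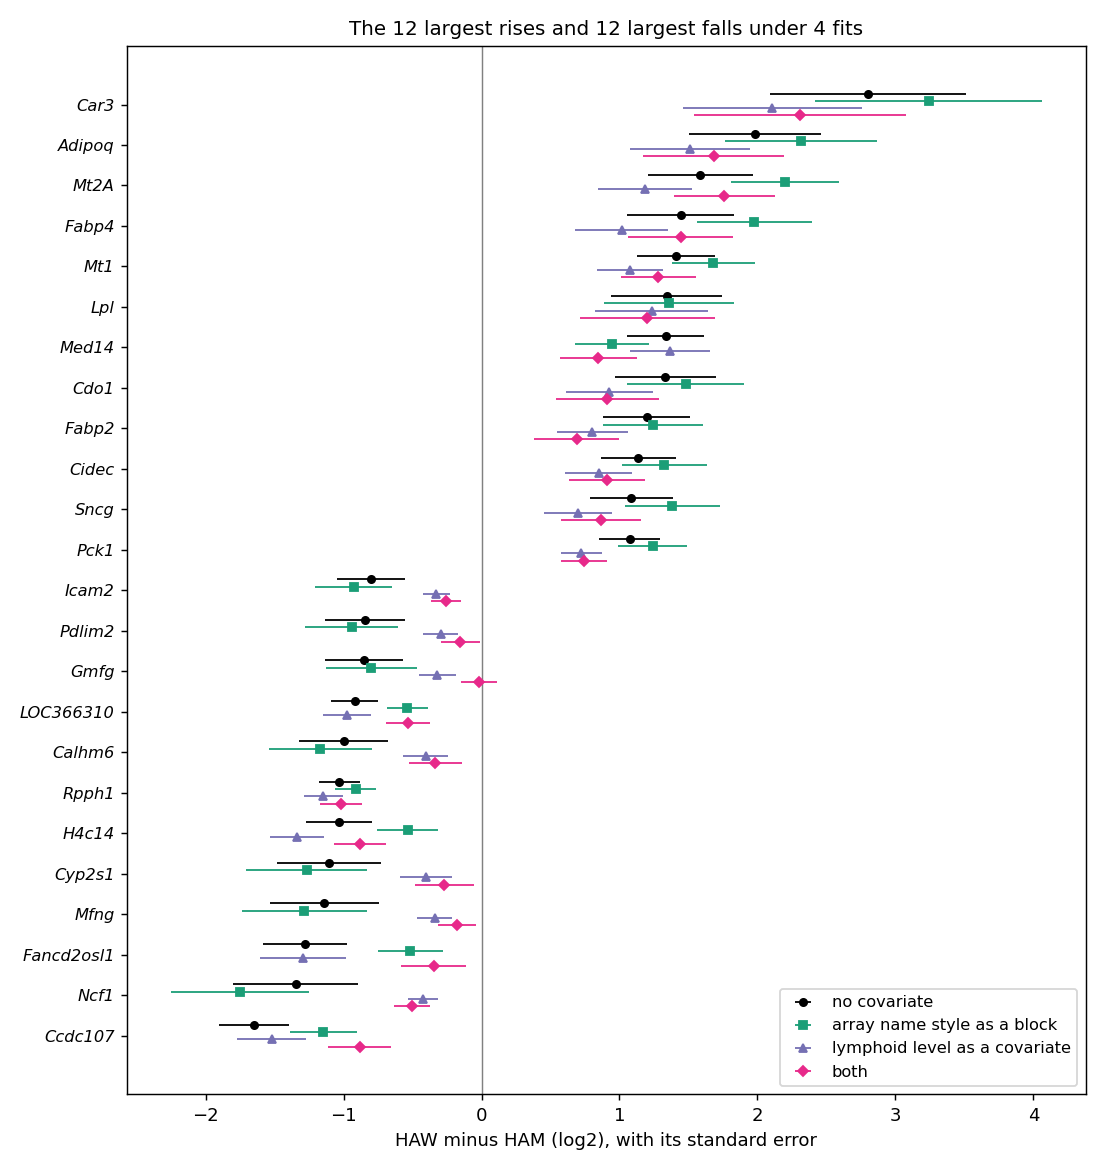
HAW minus HAM difference (log2) with its standard error for the 12 largest rises and 12 largest falls, fitted with no covariate (black circles), with array name style as a block (green squares), with the lymphoid level as a covariate (violet triangles) and with both (pink diamonds). Rpph1 stayed between -1.15 and -0.91 and Mt1 between 1.07 and 1.68, while Gmfg was -0.85 with no covariate and -0.02 with both.

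Lists of genes that meet fermentation products were followed next. The list of carriers, receptors and activating enzymes for short-chain fatty acids held 10 tested genes, of which 3 rose and none fell, beside rises in 11.0% of all genes. Slc16a1, the monocarboxylate carrier that brings butyrate into colonocytes, lay between 9.61 and 10.72 (median 10.44) in HAW, against 9.25 to 10.51 (median 9.97) in HAM. The groups overlapped in 5 HAW arrays and 6 HAM arrays, and the difference was 0.49 ± 0.15 (adjusted p = 0.0268), or 1.40-fold. Slc5a8, its sodium-coupled counterpart, rose by 0.59 ± 0.20, and Acss2, which activates acetate, by 0.43 ± 0.13. Of the 16 fits that left out 1 array, Slc16a1 lost its call in 7, Slc5a8 in 11 and Acss2 in 6. All 23 genes of fatty acid oxidation and ketogenesis were higher in HAW, beside 6606 of all 10828 genes tested. Their median was 0.32, and 6 passed. They included Ppara, the fatty acid sensing nuclear receptor (0.62 ± 0.16), Acaa2, the last enzyme of the mitochondrial spiral (0.53 ± 0.16), and Etfdh, which passes its electrons to the respiratory chain (0.45 ± 0.14). Acaa2 lost its call in 9 and Etfdh in 8 of the fits that left out 1 array, and Ppara in none. Sulphide and ammonia are other products of colonic bacteria. Of 17 genes that make or remove them or belong to the urea cycle, 8 rose and none fell, among them Cth, whose enzyme can produce sulphide. Sqor, which oxidises sulphide in mitochondria, averaged 10.44 ± 0.50 in HAW and 9.71 ± 0.37 in HAM (0.72 ± 0.17, adjusted p = 0.0104), though its second probe set gave 0.19. Ethe1, the next enzyme of that path, rose by 0.49 ± 0.14 and Glud1, glutamate dehydrogenase, which can release ammonia, by 0.35 ± 0.10. With name style as a block 0 of the fatty acid carrier list, 5 of the oxidation list and 7 of the sulphide and ammonia list rose. With the lymphoid level 0, 0 and 1 rose, and with both none did. Of all 10828 genes tested, 486 rose with name style, 256 with the lymphoid level and 21 with both. Calls were thus lost over all genes, not in these lists alone.

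Salt, water and barrier genes were described by 2 lists. In ion and water transport 12 of 28 genes rose, none fell, and the median was 0.39, beside rises in 11.0% of all genes and a median of 0.07. Gucy2c, the guanylin receptor, rose by 0.67 ± 0.17, Sgk1, the aldosterone-induced kinase, by 0.60 ± 0.17, Slc12a2, the basolateral chloride loader, by 0.61 ± 0.17, and Slc26a3, the apical chloride and bicarbonate exchanger, by 0.55 ± 0.19. Slc26a3 lost its call in 10 of the 16 fits that left out 1 array, Sgk1 and Slc12a2 in 2 each and Gucy2c in none. Of 16 tight junction genes 4 rose, beside the same 11.0%. Claudin 8 (Cldn8), which seals the distal colon against sodium leak, lay between 6.60 and 7.88 (median 7.43) in HAW, against 5.43 to 7.48 (median 6.23) in HAM (0.98 ± 0.23, adjusted p = 0.0102). Ocln and Tjp1, the junction proteins occludin and ZO-1, rose by 0.60 ± 0.17 and 0.51 ± 0.14. With name style as a block none of the 28 transport genes passed and 1 tight junction gene did, beside 7.43% of all genes. With name style and the lymphoid level together the medians were 0.02 and -0.01, beside -0.01 over all genes.

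Of 18 goblet cell genes 6 rose and none fell, beside rises in 11.0% of all genes. Of the 18, 4 rose with name style, 1 with the lymphoid level and 0 with both. Those fits gave 486, 256 and 21 rises over all 10828 genes tested. Clca1, a protease secreted with mucus, lay between 12.51 and 12.89 (median 12.70) in HAW, against 11.95 to 12.61 (median 12.21) in HAM (0.45 ± 0.09, adjusted p = 0.0057). Slc12a8 rose by 0.62 ± 0.17 and Sytl2, which acts in granule release, by 0.64 ± 0.18. Retnlb, a bactericidal goblet cell protein, ranged from 5.31 to 9.45 in HAW and from 4.52 to 8.35 in HAM and did not pass (adjusted p = 0.201). Among 25 glycosyltransferases that build mucin O-glycans and related chains, 13 rose and none fell, or 52.0%. Fut8, which adds core fucose to N-glycans, rose by 0.75 ± 0.14 (adjusted p = 0.00307), and Galnt4 and Galnt7, which extend or start O-glycans, by 0.68 ± 0.17 and 0.65 ± 0.17. Pigr, which carries IgA across the epithelium, rose by 0.42 ± 0.13, and its call was lost in 10 of the 16 fits that left out 1 array. The median of the glycosyltransferase list was 0.36 with no covariate, 0.34 with name style, 0.24 with the lymphoid level and 0.06 with both. In those last 3 fits 6, 2 and 0 of its genes rose, beside the same 486, 256 and 21 of all genes. Under name style 1 of its genes fell.

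Of 22 xenobiotic genes 8 rose and 1, Cyp2s1, fell, beside rises in 11.0% and falls in 2.33% of all genes. With name style 2 rose, with the lymphoid level 4 and with both none, beside 486, 256 and 21 of all 10828 genes tested. Akr1c19, an aldo-keto reductase, rose by 0.95 ± 0.23, but its HAM mean of 4.19 ± 0.55 lay under the filter's floor. Cyp3a62, an intestinal cytochrome P450, averaged 7.17 ± 0.50 in HAW and 6.33 ± 0.58 in HAM (0.84 ± 0.20, adjusted p = 0.0113), and Akr1b8, which detoxifies aldehydes, rose by 0.86 ± 0.21. Of 24 genes of the Nrf2-type antioxidant list 6 rose and none fell, among them both metallothioneins and Txnrd1, thioredoxin reductase (0.52 ± 0.14). Amd1, whose enzyme supplies aminopropyl groups for polyamines, averaged 8.55 ± 0.46 in HAW and 7.69 ± 0.36 in HAM (0.87 ± 0.17, adjusted p = 0.00507), and was the 1 gene of 12 in the polyamine list that passed. Of 13 amino acid carriers 3 rose, including Slc6a14 (0.79 ± 0.25) and Slc38a1 (0.47 ± 0.10), which bring neutral and cationic amino acids or glutamine into cells. Slc6a14 lost its call in 9 of the 16 fits that left out 1 array, and Slc38a1 in none.

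Connective tissue was read from its markers. Of 24 fibroblast and matrix genes 10 rose and none fell, with a median of 0.38, beside rises in 11.0% of all genes and a median of 0.07. Col3a1, a fibrillar collagen, averaged 10.63 ± 0.30 in HAW and 9.99 ± 0.44 in HAM (0.64 ± 0.14, adjusted p = 0.00606), while decorin (Dcn) and the receptor gene Pdgfra rose by 0.65 ± 0.16 and 0.63 ± 0.14. Enteroendocrine cells gave 3 rises in 12 genes, Cpe (0.56 ± 0.13), Chga (0.29 ± 0.10) and Chgb (0.40 ± 0.14), which encode a prohormone-processing enzyme and granule proteins. Chga and Chgb each lost the call in 12 of the 16 fits that left out 1 array. In the enteroendocrine list 4 genes rose with name style, 1 with the lymphoid level and 0 with both. Over all 10828 genes tested 486, 256 and 21 rose in those fits. Uchl1, a ubiquitin hydrolase of enteric neurons, rose by 0.60 ± 0.17, and Kit, the receptor of mast cells and pacemaker cells of the gut wall, by 0.64 ± 0.14. Hoxd13, which marks the hindmost gut, lay between 9.73 and 10.32 (median 10.04) in HAW, against 8.20 to 9.86 (median 9.31) in HAM (0.76 ± 0.15, adjusted p = 0.00482). LAW, LAMS, HAMSB and the control had Hoxd13 means between 9.85 and 10.19. Of 17 absorptive colonocyte markers 3 rose, a share not far from the 11.0% of all genes, among them villin (Vil1, 0.55 ± 0.14). With the lymphoid level as a covariate 2 of the 24 fibroblast genes and none of the 17 colonocyte markers passed. Name style as a block gave 2 fibroblast rises and 0 colonocyte rises. With both fitted, 0 fibroblast genes rose (median 0.06) and 1 colonocyte marker did. Rises over all genes in these fits were those given above, 486 with name style, 256 with the lymphoid level and 21 with both.

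White blood cell genes varied widely within both diets, and few passed. All but 1 of 16 B cell and germinal centre genes were lower, with a median of -1.14, yet only Vpreb3, a protein of the B cell receptor complex, passed (-0.70 ± 0.23, adjusted p = 0.0417). The 20 T and NK cell genes had a median of -0.94 and none passed, and of 11 MHC class II genes 10 were lower without passing while the protease gene Ctss rose; with arrays centred on their medians none rose and 1 fell. Ncf1, a subunit of the phagocyte oxidase, showed the spread: it lay between 5.55 and 8.35 (median 5.99) in HAW, against 5.88 to 9.20 (median 8.24) in HAM (-1.35 ± 0.45, adjusted p = 0.042). Its mean in the other 4 diets lay between 6.43 and 6.78, near that of HAW at 6.43 ± 1.00. Mfng, which modifies Notch in lymphocytes, fell by 1.14 on the log2 scale, Gmfg, an actin regulator of blood cells, by 0.85, and Icam2, an adhesion molecule of endothelium and lymphocytes, by 0.80. Calhm6, of macrophages, and Pdlim2 fell by 1.00 and 0.85. With the lymphoid level as a covariate the differences of these genes lay between -0.42 and -0.29, and Ncf1 and Icam2 kept an adjusted p below 0.05. The calls for Ncf1, Mfng, Gmfg and Pdlim2 came with adjusted p between 0.0408 and 0.0496. Cyp2s1, an epithelial cytochrome P450, fell by 1.11 and moved likewise, to -0.40 with the lymphoid level as a covariate. Ncf1, Mfng, Pdlim2, Vpreb3 and Cyp2s1 each lost the call in 11 of the 16 fits that left out 1 array. Gmfg and Calhm6 lost it in 10 and Icam2 in 8. Of 18 macrophage and dendritic cell genes 9 were higher and 9 lower in HAW, with a median of -0.01; the 2 that passed were Cd14, a monocyte marker (0.60 ± 0.17), and Mrc1, both higher.

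Of 68 cytoplasmic ribosomal protein genes 9 fell (13.2%, beside 2.33% of all genes), 63 were lower in HAW and the median was -0.17. Rpl35a averaged 10.32 ± 0.19 in HAW and 10.78 ± 0.39 in HAM (-0.46 ± 0.12, adjusted p = 0.0163), and its 9 probe sets gave differences between -0.53 and -0.43. Rpl32 and Rps27 fell by 0.45 and 0.59. Many ribosomal protein genes have near-identical processed copies, so their probe sets may measure several genes. With name style as a block the list's median was -0.03, and with the lymphoid level added it was 0.09. In oxidative phosphorylation 2 of 45 genes rose, Ndufs1 (0.55 ± 0.14) and Atp5f1a (0.29 ± 0.09), beside rises in 11.0% of all genes. With name style as a block 14 of the 45 rose, beside 486 of all 10828 genes tested. Atp5f1a lost its call in 11 of the 16 fits that left out 1 array. None of the 19 genes of cholesterol synthesis, 51 of splicing, 24 of the cell cycle or 20 of base excision repair passed, beside 13.3% of all genes. In mismatch repair 2 of 4 genes rose, Mlh3 by 0.57 ± 0.14 and Msh3 by 0.36 ± 0.12, beside rises in 11.0% of all genes. With name style as a block none of the 4 passed and their median was -0.07. Msh3 lost its call in 9 of the 16 fits that left out 1 array. Among 16 histone deacetylases and sirtuins 2 rose and 2 fell, beside rises in 11.0% and falls in 2.33% of all genes. Hdac1 (0.44 ± 0.13, and 0.23 by its second probe set) and Hdac6 (0.31 ± 0.08) rose while Hdac10 (-0.22 ± 0.07) and Hdac7 fell. Clock, of the circadian oscillator, rose by 0.68 ± 0.16, the 1 of 14 clock genes that passed.

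Some genes of interest in the colon did not pass. Slpi, a secreted protease inhibitor, ranged from 6.58 to 9.27 in HAW and from 6.4 to 9.42 in HAM (-0.51 ± 0.46, adjusted p = 0.45). Guca2b, which encodes uroguanylin, the partner of the Gucy2c receptor, averaged 7.98 ± 0.41 in HAW and 8.18 ± 0.55 in HAM (adjusted p = 0.515). HAMSB had the highest Guca2b mean of the 6 diets, at 9.17 ± 0.31. Cxcl1, a chemokine for neutrophils, was low and fell by 0.29 on the log2 scale, at 5.46 ± 0.18 in HAW and 5.75 ± 0.18 in HAM (adjusted p = 0.0399). Its call was lost in 11 of the 16 fits that left out 1 array.

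**Figure D4:**
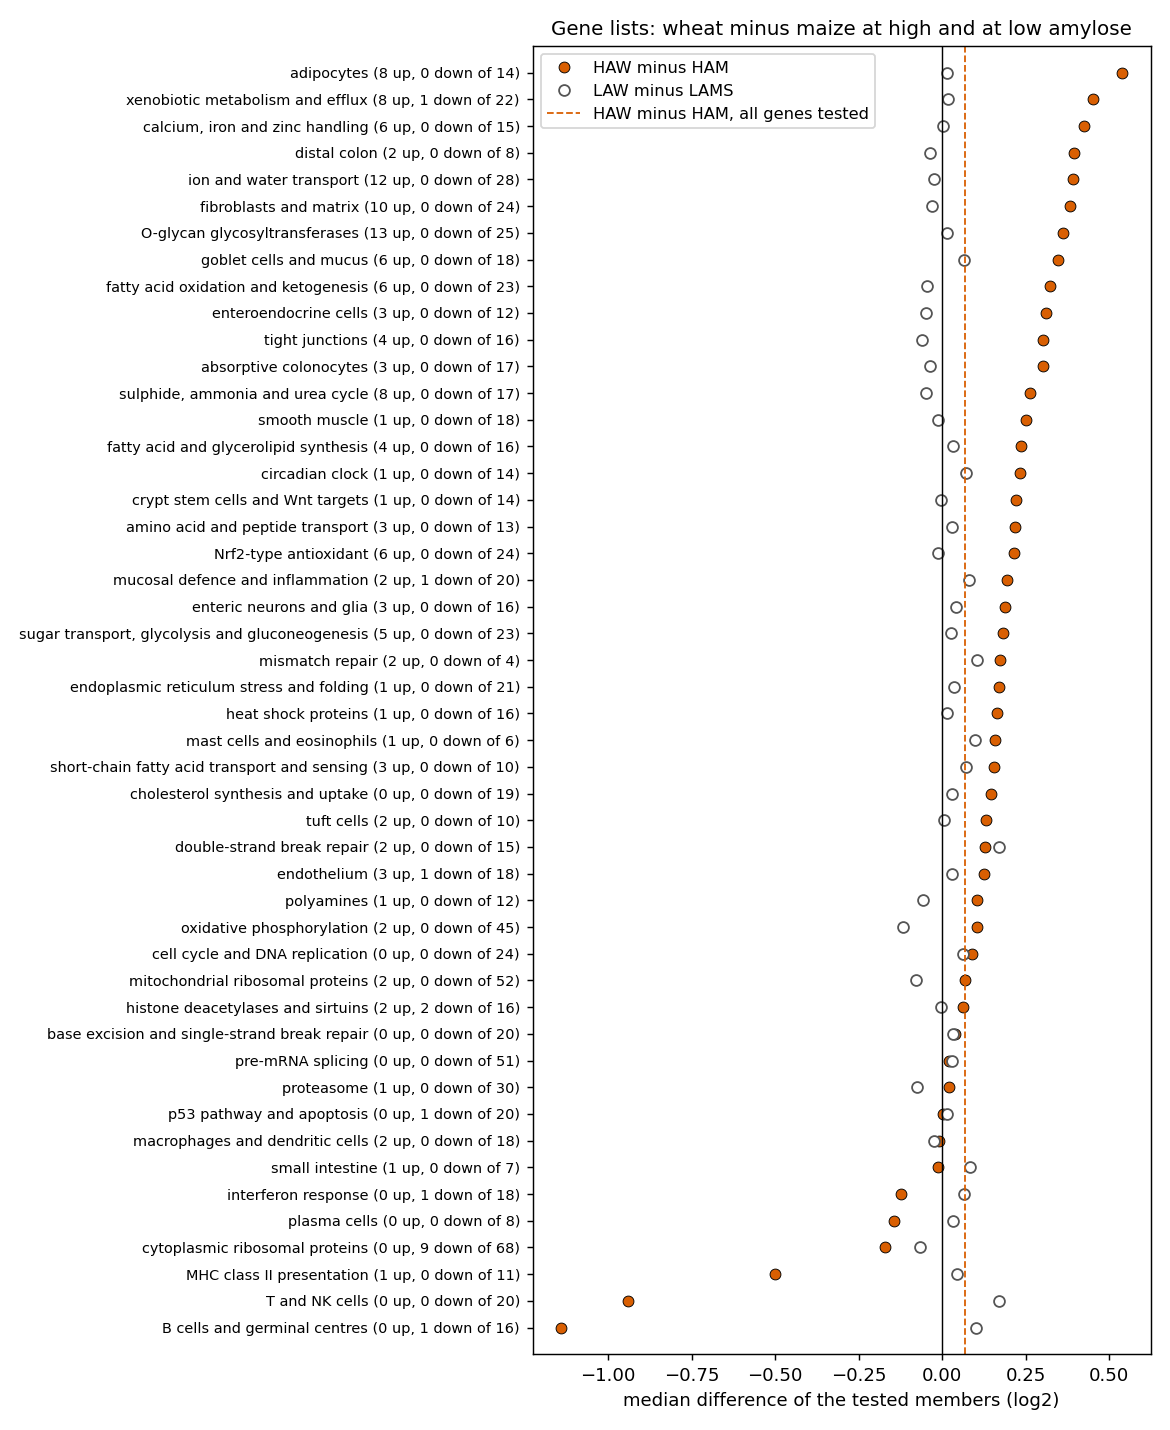
Median difference (log2) over the tested members of each gene list, for HAW minus HAM (orange) and for LAW minus LAMS (open circles), with the number of members past the threshold in HAW minus HAM beside each name. The dashed line is the HAW minus HAM median of all genes tested, 0.07. HAW minus HAM medians run from -1.14 for B cells to 0.54 for adipocytes, and those of LAW minus LAMS lie between -0.12 and 0.17.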

How the data were processed

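RNA from distal colon was hybridised to 43 Affymetrix rat arrays, from 100 ng of total RNA each, per the labels. The authors deposited log2 expression values made with RMA (background correction, quantile normalisation and probe set summary), per the submitters' processing notes; its version is not given in the sources used here. Quantile normalisation gives arrays nearly the same distribution over all probe sets, so differences are relative, and precision is set by how many arrays a diet has. The table held 29214 probe sets: 15310 with 1 gene symbol in the platform annotation, 323 with several and 13581 with none. For each of 14506 symbols the probe set of highest mean over all arrays was kept. The filter took the median of each probe set over all arrays. It kept the 10828 genes whose median reached 4.79, the 25th percentile of these medians over probe sets with 1 symbol.

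One limma model (3.58.1, R 4.3.3) took all 43 arrays, each of the 6 diets having its own mean, with Benjamini-Hochberg adjustment over all genes tested and a threshold of 0.05; plots used Python 3.11.15 and matplotlib 3.10.9. All adjusted p-values come from limma, and the model was tested on simulated data. The labels do not say that arrays of a diet come from separate litters or cages, so p-values measure only the spread between these arrays. Genes were named by rule: the 12 largest rises and falls, up to 3 genes of smallest p from each list with a gene past the threshold, the 8 genes of smallest p for the difference of the grain contrasts, and fixed genes of interest; genes of separated groups, zinc carriers, histones and the gene symbols Degs2, Kit, Vil1, Slc26a3, Cd14, Mrc1, Cth, Hdac7 and Ctss were added after their values were seen. The members and lists were chosen with earlier results of these data known. Of 110 genes looked up, 99 have a RefSeq transcript among the entries of their probe set. Alternatives changed the filter, the probe sets, the prior, array weights, the arrays fitted, centring, and blocks or covariates for name style, number range of the array files, replicate number, lymphoid level and array spread; the adipocyte covariate, its combination, a fit without HAW replicate 8 and HAM replicate 6, and the alternatives for list medians, for LAW minus LAMS and for leaving arrays out of the difference of the grain contrasts were added after seeing the data. Muc2 was not analysed here.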

Additional observations from a re-analysis of the deposited data

Results flagged for a closer look

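In 22 of 226 groups of 8 arrays tested, 1 array stood apart from the others by Dixon's criterion. Chance meets that criterion in about 1 of 20 groups. The 226 groups come from the same 16 arrays and are not independent, so the 22 cannot be judged against that rate. HAW replicate 8 was the array that stood apart in 16 of the 22. It was the lowest for Rpph1 (11.13), Sytl2 (7.28), Acaa2 (8.79), Slc16a1 (9.61), Slc5a8 (9.16), Txnrd1 (6.94) and Sqor (9.39). It was also the lowest for Fut8 (7.81), Galnt7 (8.38), Pigr (11.63), Gnas (10.69), Slc39a8 (6.10), Hist1h2af (6.25) and Kit (6.33), and its array spread of 1.81 was the lowest of the diet, while its Ctc1 was the highest (8.87). HAW replicate 5, which had the highest lymphoid level of its diet, was the highest for Calhm6 (7.52), Rps27 (7.04) and Lsm4 (8.88). HAW replicate 6 was the highest for Akr1c19 (5.99), HAM replicate 1 the highest for H4c14 (9.38) and HAM replicate 2 the lowest for Slc12a8 (6.43).

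The wheat minus maize difference differed between high and low amylose for Eif2s2 (1.24), Rpph1 (-1.19) and Ccdc107 (-2.0), by a test of the difference itself.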

How the results depend on the processing

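Against 1445 genes between HAW and HAM and 3 for the difference of the grain contrasts, the counts moved as follows. Array weights gave 4734 and 1133, name style as a block 805 and 50, name style and number range together 604 and 40, the lymphoid level 361 and 5, and name style with the lymphoid level 38 and 31. Array spread as a covariate gave 5, only arrays of 1 name style 7, only HAW and HAM in the fit 25, and centring 984 (545 up, 439 down, 793 shared). Added after seeing the data, the adipocyte level gave 23, its combination with name style and lymphoid level 3 and 9, and leaving out the 2 arrays of lowest spread (HAW replicate 8, HAM replicate 6) 2195 and 12. Leaving out 1 array gave 542 to 3109 and 3 to 215, with 542 without HAW replicate 2 and both highest counts without HAW replicate 8. LAW minus LAMS stayed at 0 in limma in every alternative run. Replicate numbers paired no samples (correlations from -0.65 to 0.45), and a replicate block gave 1040. The array spread difference turned to -0.0275 within 1 name style, where HAW replicate 8 was 1 of 3 HAW arrays.

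Some signs turned, with the cause not tested. With name style Guca2b was 0.053 and Mt3 0.17, with number range added 0.061 and 0.18, and within 1 style 0.11 and 0.17. With name style and lymphoid level Sytl2 was -0.016, Slc5a8 -0.058, Tjp1 -0.0058, Guca2b 0.26 and Mt3 0.090. With the adipocyte level Fabp4 was -0.020, Cdo1 -0.074, Sncg -0.078, Slpi 0.20 and Lep -0.0040. With all 3, Car3 was -0.15, Adipoq -0.073, Lpl -0.40, Cdo1 -0.34, Sncg -0.051, Sytl2 -0.10, Guca2b 0.045, Lep -0.16 and Mt3 0.10. Of 104 genes looked up that passed, 52 kept their call with name style, 51 with lymphoid level, 8 with both and 4 with array spread. Fits that left out 1 array kept between 70 and 104 of these calls.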

Other observations

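Histone genes, chosen after their values were seen, were mostly lower in HAW. Of 28 tested, 8 fell, 1 rose (H3f3b) and 25 were lower, with a median of -0.29 and a LAW minus LAMS median of -0.16. Over all genes tested 2.33% fell and 11.0% rose, and the HAW minus HAM median was 0.07. Hist1h2af averaged 6.98 ± 0.35 in HAW and 7.68 ± 0.41 in HAM (-0.70 ± 0.18, adjusted p = 0.0132 by limma). Hist1h2bg fell by 0.65 on the log2 scale, and Hist3h2ba and H2bc18 by 0.58 each. These differences were larger with the lymphoid level as a covariate (-0.87 for Hist1h2af, -0.83 for Hist1h2bg, -0.72 for Hist3h2ba and -0.80 for H2bc18). With name style as a block 4 of the 28 passed, beside 7.43% of all genes tested. Of these 4, H3f3b, H3f3a and H2az2 were higher in HAW and Hist3h2ba alone was lower. With name style and the lymphoid level together 1 passed, H4c14 (-0.88), beside 0.351% of all genes tested. Related histone genes have near-identical sequences, so probe sets may measure several of them.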
